A study of Mus musculus with 36 samples.

Results

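The urea cycle and the periportal steps that feed it with nitrogen were followed through 10 genes in heart, kidney and liver of maturing mice. The genes were named by symbol and matched to their Ensembl identifiers, and all 10 were found among the 78239 gene identifiers counted in every library. The animals, all male and wild type, were of the inbred strain C57BL/6NCrl and received no agent other than the ketamine and xylazine anaesthesia given before death. Their ages were 8, 10 and 12 weeks, with 4 libraries from each tissue at each age and 36 libraries in all. Polyadenylated RNA of whole tissue was sequenced, and the level of a gene is given as CPM, its counted read pairs per 1000000 pairs counted on genes in that library.

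In the liver, ammonia is turned into urea mainly by hepatocytes near the portal vein, while glutamine synthetase in cells around the central vein captures what escapes. Inside mitochondria, Nags makes N-acetylglutamate, the activator of the entry enzyme Cps1, and Otc joins the carbamoyl phosphate from Cps1 to ornithine. In the cytosol Ass1 and Asl build and split argininosuccinate, Arg1 releases urea, and the carrier Slc25a15 returns ornithine to the mitochondrion. Gls2 frees ammonia from glutamine at the portal end, Hal removes ammonia from histidine, and Sds removes it from serine. Kidney uses Ass1 and Asl without the rest of the cycle, to make arginine for the circulation.

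All 10 genes code for proteins, and their positions are given on GRCm39. Cps1 (ENSMUSG00000025991) lies at chr1:67161988-67270418, Otc (ENSMUSG00000031173) at chrX:10118503-10187265 and Nags (ENSMUSG00000048217) at chr11:102036339-102040303. Ass1 (ENSMUSG00000076441) lies at chr2:31352181-31410862, Asl (ENSMUSG00000025533) at chr5:130040099-130058088 and Arg1 (ENSMUSG00000019987) at chr10:24791118-24803817. Slc25a15 (ENSMUSG00000031482) lies at chr8:22865516-22889423, Hal (ENSMUSG00000020017) at chr10:93324629-93355166, Sds (ENSMUSG00000029597) at chr5:120614585-120621997 and Gls2 (ENSMUSG00000044005) at chr10:128030316-128045873. Exons of Asl, Arg1, Nags, Slc25a15, Sds and Gls2 overlap exons of a gene on the other strand in the annotation used here. The counts ignore strand, and a pair that overlaps exons of both genes is counted for neither. The levels of these genes leave out such pairs, by an amount that was not measured.

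The stretch in front of the gene start is shown for 3 of the genes, as they stand for the different patterns described here. Slc25a15 was measured in all tissues and changed differently with age in liver and elsewhere, Ass1 was high in liver and kidney, and Hal was near 0 outside the liver. The sequences are the 250 bases before the first RefSeq start on GRCm38.p6, an older build than that of the counts, 5′ to 3′ in the direction of the gene. Capitals mark, on either strand, an SP1 box with the letters GGGCGG, an E-box with the letters CACGTG and a C/EBP motif with the letters TTGCNNAA. They also mark a box with the letters CCAAT, and a TATA box, whose letters in the search were TATAAA. The window of Slc25a15 is chr8:22398622-22398871 on the minus strand, that of Ass1 chr2:31470020-31470269 on the plus strand and that of Hal chr10:93488518-93488767 on the plus strand.
Slc25a15: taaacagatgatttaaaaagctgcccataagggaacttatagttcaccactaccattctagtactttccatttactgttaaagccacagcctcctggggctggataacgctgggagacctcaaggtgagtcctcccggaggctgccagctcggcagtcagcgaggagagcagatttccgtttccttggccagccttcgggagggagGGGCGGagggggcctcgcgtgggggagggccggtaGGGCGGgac
Ass1: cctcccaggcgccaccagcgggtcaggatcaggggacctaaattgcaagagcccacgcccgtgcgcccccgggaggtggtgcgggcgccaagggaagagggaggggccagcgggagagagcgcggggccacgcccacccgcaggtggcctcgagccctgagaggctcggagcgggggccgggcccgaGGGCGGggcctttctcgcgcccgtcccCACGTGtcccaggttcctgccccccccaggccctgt
Hal: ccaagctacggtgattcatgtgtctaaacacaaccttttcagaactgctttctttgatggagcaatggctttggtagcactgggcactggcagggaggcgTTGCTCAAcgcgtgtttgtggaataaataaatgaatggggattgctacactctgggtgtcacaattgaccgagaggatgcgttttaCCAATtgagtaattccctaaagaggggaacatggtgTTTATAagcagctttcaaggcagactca

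The 3 windows differed in base composition. That of Ass1 was 75.6% G and C with 23 CpG pairs, above 96.4% of the 32851 windows of the same length in the RefSeq table, whose median was 52.4% with 6 CpG pairs. The Slc25a15 window had 57.6% G and C with 11 CpG pairs, and the Hal window 45.6% with 6. The SP1 boxes in front of Slc25a15 began 44 and 9 bases before its start, and that in front of Ass1 began 63 bases before. SP1 boxes were common, in 32.7% of all windows. The E-box of Ass1 began 36 bases before its start, a motif in 6.02% of windows. Hal held a C/EBP motif 150 bases, a CCAAT box 64 bases and a TATA box 28 bases before its start, which 9.56%, 33.8% and 12.4% of windows held. Also searched were the CRE half-site TGACG, present in 17.8% of windows, the GRE half-site AGAACA in 16.1%, the HNF4 site CAAAGTCCA in 0.384% and the FOXA site TGTTTAC in 3.17%. None of these letters lay in a window of the matched genes. The motifs did not overlap each other in the printed windows. Nags and Otc were matched as well, with 55.6% and 43.6% G and C. Cps1, Asl, Arg1, Sds and Gls2 had no entry in the table.

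Libraries held between 21031599 and 33637390 counted pairs. Markers matched the labelled tissues: the summed level of 6 hepatocyte genes (Alb, Ttr, Apoa1, Apob, Fgb and Serpina1a) lay between 78470 and 117600 CPM in liver, and 5 cardiomyocyte genes reached at most 1.045 CPM there. The sum of 5 proximal tubule genes was 25040 to 32600 CPM in kidney, and that of the 5 cardiomyocyte genes 42300 to 55840 CPM in heart. In heart the 6 hepatocyte genes reached at most 23.7 CPM at 10 weeks and at most 0.268 CPM at 8 weeks. Among the liver libraries, replicate 4 at 8 weeks had the highest level of 7 of the 10 genes and replicate 1 at 12 weeks the lowest of 6. In the former Glul, the pericentral glutamine synthetase, stood at 532 CPM, against 934 to 1089 CPM in the other 11 libraries. The pericentral gene Slc1a2 was not low there. The 8-week livers held 239 to 299 CPM of it, against 174 to 219 at 10 weeks and 175 to 260 at 12 weeks. Pericentral Oat held 675 to 910, 774 to 1004 and 1092 to 1305 CPM at these ages, and Rhbg was near the floor. In replicate 1 at 12 weeks Pdk4, a kinase gene induced by fasting, stood at 24.9 CPM, against 2.02 to 7.20 CPM elsewhere. The part of these differences in the results was not tested.

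First, the tissues were compared. The full set was measured at high level in liver alone, where the 10 genes took 1.15% to 2.22% of all counted pairs (median 1.59%, 12 libraries). In kidney they took 0.304% to 0.548%, most of it Ass1, and in heart 0.00214% to 0.00290%. Over all ages, Cps1 averaged 6854 ± 1131 CPM in liver (SD, n = 12), Ass1 4859 ± 1101, Arg1 1477 ± 328 and Asl 832 ± 261. Otc averaged 574 ± 61.0 CPM, Slc25a15 477 ± 108, Gls2 455 ± 89.5, Hal 450 ± 119, Sds 135 ± 49.3 and Nags 45.3 ± 7.67. Whether fewer cells of a type or less RNA per cell lies behind a lower level cannot be told apart in whole tissue.

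**Figure D1:**
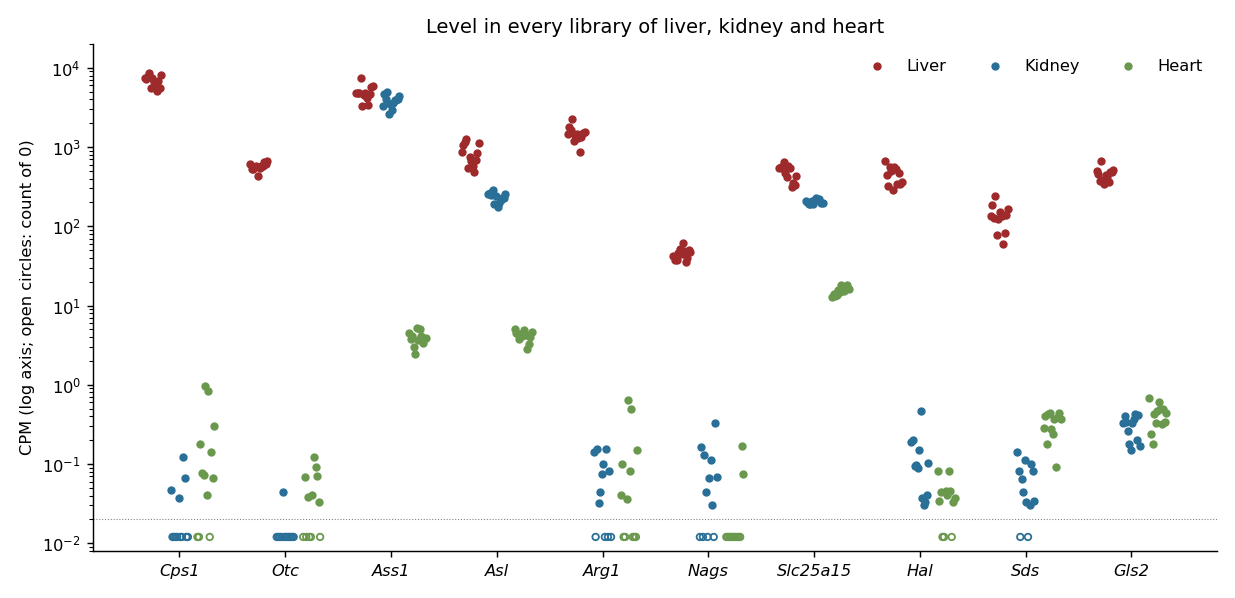
Level of each gene in CPM on a log axis, with a point for each of the 12 libraries of liver, kidney and heart, and open circles at the bottom for a count of 0. Ass1, Asl and Slc25a15 stand above 2 CPM in every library of all 3 tissues, and the other 7 genes stay below 1 CPM outside liver.

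To compare genes with each other, CPM was divided by the length of the merged exons in kilobases. On this scale Ass1 led in liver at 1300 ± 295 CPM per kb, followed by Cps1 at 1117 ± 184 (SD, n = 12), and their ranges overlapped although Ass1 was higher in 10 of 12 libraries. Arg1 came next at 462 ± 103 CPM per kb, below Cps1 and above Otc in all 12 libraries. Otc (129 ± 13.7), Asl (125 ± 39.2), Gls2 (104 ± 20.5), Hal (81.0 ± 21.5), Sds (72.3 ± 26.5) and Slc25a15 (53.1 ± 12.1) formed a run in which each range overlapped the next. Nags, whose product is needed as an activator only, was lowest at 16.0 ± 2.7 CPM per kb, under Slc25a15 in all 12 libraries.

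Kidney kept the arginine-making pair and the ornithine carrier. Ass1 lay between 2645 and 4998 CPM there, Asl between 173 and 289 and Slc25a15 between 189 and 230. The other 7 genes were close to 0: over the 331926894 counted pairs of the 12 kidney libraries, Cps1 had 8 pairs, Otc 1, Arg1 22, Nags 25, Hal 42, Sds 19 and Gls2 99. For Cps1 that was 0.0241 CPM (exact Poisson 95% interval 0.0104 to 0.0475, counting error only). Per kb of exon, kidney Ass1 reached 1023 ± 180 CPM, Asl 34.8 ± 5.0 and Slc25a15 22.9 ± 1.46, and the ranges of these 3 did not overlap. In heart the carrier led, with Slc25a15 at 1.73 ± 0.212 CPM per kb, Ass1 at 1.05 ± 0.211 and Asl at 0.627 ± 0.0942 (SD, n = 12).

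All 10 genes were higher in liver than in kidney and than in heart past the adjusted p of edgeR's quasi-likelihood test over 36 libraries. Such calls were frequent: 83.1% of all 19716 genes were called between liver and kidney, 37.0% as higher in liver, and 84.2% between liver and heart, 42.2% as higher in liver. Folds are given for the 3 genes measured in every tissue. Relative to kidney, liver was higher by 1.15 ± 0.11 (log2, SE) for Ass1, 2.61 ± 0.10 for Asl and 1.98 ± 0.058 for Slc25a15. These values depend on the scale, since the TMM factors that balance the bulk of genes between libraries ran from 0.724 to 1.42. With the total of counted pairs as the only scale they were 0.35, 1.82 and 1.19, all still called. Kidney exceeded heart by 9.40 ± 0.16 for Ass1, 5.26 ± 0.12 for Asl and 3.20 ± 0.062 for Slc25a15 (log2, SE). The calls between kidney and heart numbered 8 of 10 genes against 86.1% of all genes. Of these Ass1, Asl, Slc25a15 and Nags were higher in kidney and Cps1, Otc, Sds and Gls2 lower, and other than the first 3 they were near 0 in both tissues.

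Related enzymes showed other orders. Arg2, the mitochondrial arginase, averaged 2.30 ± 0.678 CPM in kidney and 0.157 ± 0.0954 in liver. Sdsl, a serine dehydratase relative, averaged 18.3 ± 6.99 CPM in liver, 4.27 ± 0.551 in kidney and 6.33 ± 0.795 in heart. Slc25a2, a further ornithine carrier, had 44, 35 and 44 counted pairs in all of liver, kidney and heart.

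Next, the ages were compared in liver, where all 10 genes passed the filter on low counts. The fitted level of most genes was lower at 10 and 12 than at 8 weeks, in part through 1 library, and none passed the adjusted p of edgeR's quasi-likelihood test in any pair of ages. Genes called were also rare in this tissue as a whole, at 0.239% of 14672 genes for 12 against 8 weeks, 0.0204% for 10 against 8 and 0.0545% for 12 against 10. Fitted changes were below 0 for 8 of 10 genes at 12 against 8 weeks (50.7% of all genes) with a median log2 fold change of -0.33, beside -0.0039 over all genes tested. Without replicate 4 at 8 weeks they were below 0 for 6 of 10 with a median of -0.21, and without replicate 1 at 12 weeks for 7 of 10 with a median of -0.22. At 10 against 8 weeks they were below 0 for 9 of 10 (50.1% of all genes) with a median of -0.37, beside -0.00058. Without replicate 4 at 8 weeks they were still below 0 for 9 of 10, with a median of -0.18. At 12 against 10 weeks they were below 0 for 4 of 10 (49.0% of all genes), 6 of 10 without 10-week replicate 1 or 12-week replicate 4, and 0 of 10 were without overlap (8.32% of all genes). An unadjusted p under 0.05 was reached by Slc25a15 and Arg1 at 12 against 8 weeks (15.1% of all genes), and by Asl, Arg1 and Gls2 at 10 against 8 (14.3%), all of them lower at the older age. At 12 against 10 weeks Otc, which was higher, and Slc25a15, which was lower, reached it (14.1%). The share of read pairs that could be counted on genes also differed between the ages, at 74.8% to 78.8% at 8 weeks, 68.6% to 74.4% at 10 weeks and 72.1% to 74.8% at 12 weeks. All 8-week livers lay above all older ones, replicate 4 was the highest at 78.8%, and the part of this in the levels was not tested.

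**Figure D2:**
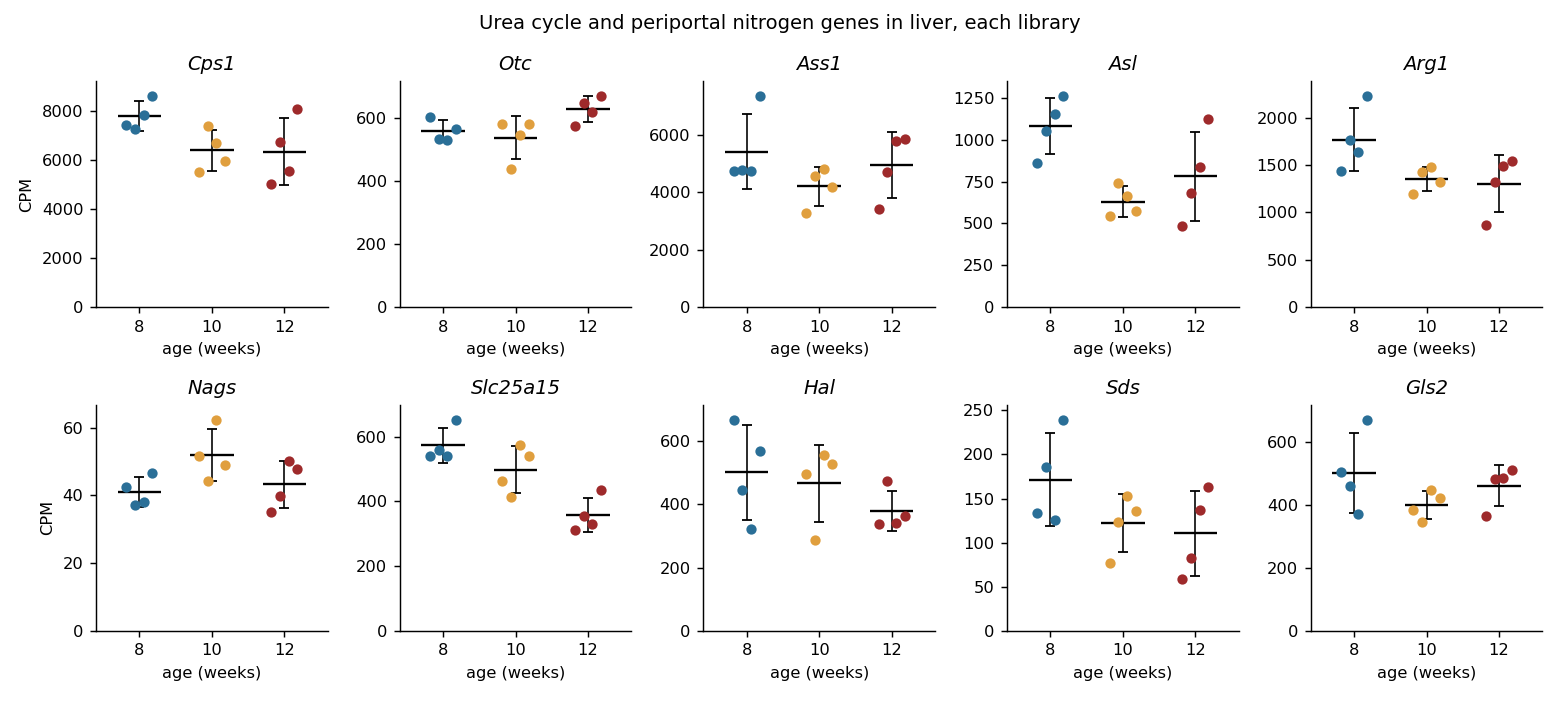
Level in CPM (linear axis from 0) of each gene in each liver library at 8, 10 and 12 weeks, with the mean as a line and the SD as a bar (n = 4). Slc25a15 at 12 weeks (313 to 435 CPM) lies below all 8-week libraries (542 to 653), and Asl at 10 weeks (543 to 743) below all 8-week libraries (864 to 1263).

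Slc25a15, the mitochondrial ornithine carrier, gave the clearest separation. Its levels at 8 weeks were 542, 559, 542 and 653 CPM, at 10 weeks 464, 415, 576 and 540 CPM, and at 12 weeks 313, 353, 330 and 435 CPM. All 12-week libraries were below all 8-week libraries, which held for 7.42% of genes in either direction and 3.95% in this one. The log2 fold change at 12 against 8 weeks was -0.66 ± 0.13 (SE), with an edgeR adjusted p of 0.0649. Over the 20 other settings and left-out libraries the adjusted p ran from 0.000807 to 0.172, and 5 of them passed the threshold. Without replicate 4 at 8 weeks the change was -0.55 with an adjusted p of 0.0926, and without replicate 1 at 12 weeks -0.60 with 0.136. With the replicate number as a block, although the numbers do not pair the ages, the edgeR adjusted p was 0.0431. At 10 against 8 weeks the change was -0.26 ± 0.13, and -0.16 without replicate 4 at 8 weeks. At 12 against 10 weeks it was -0.39 ± 0.13.

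Asl, which splits argininosuccinate into arginine and fumarate, was lowest at 10 weeks. It measured 864, 1050, 1152 and 1263 CPM at 8 weeks, 543, 743, 666 and 572 at 10 weeks, and 487, 683, 835 and 1122 at 12 weeks. The 10-week libraries lay under all 8-week libraries (9.29% of genes did not overlap, 3.22% in this direction), while those of 12 weeks spread across both. The log2 fold change at 10 against 8 weeks was -0.83 ± 0.23 (SE), with an edgeR adjusted p of 0.150. DESeq2 called it with an adjusted p of 0.0243, edgeR without the filter gave 0.0070, and the 18 remaining alternatives did not call it. Without replicate 4 at 8 weeks the change was -0.71 with an edgeR adjusted p of 0.278.

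Levels of marker genes of other liver cells also differed between ages. The summed level of 5 Kupffer cell genes (Clec4f, Cd5l, Adgre1, Vsig4 and Timd4) was 73.2 to 182 CPM at 8 weeks, 211 to 314 at 10 weeks and 112 to 124 at 12 weeks. That of 5 endothelial genes (Pecam1, Stab2, Clec4g, Kdr and Cdh5) was 94.8 to 191, 184 to 198 and 80.1 to 115 CPM. That of 5 stellate cell and fibroblast genes (Dcn, Lrat, Reln, Col1a1 and Col3a1) was 160 to 327, 215 to 272 and 136 to 218 CPM. None of these genes passed edgeR's adjusted p at any pair of ages. At an unadjusted p under 0.05, 5 Kupffer and 1 endothelial genes were higher at 10 against 8 weeks (14.3% of all genes in either direction). At 12 against 8 weeks 4 endothelial and 2 stellate genes were lower (15.1%). All 5 Kupffer and all 5 endothelial genes were lower at 12 against 10 weeks (14.1%). Of 4 cholangiocyte genes, 2 were higher at 12 against 8 weeks. Of 3 leukocyte genes tested, 2 were higher at 10 against 8 weeks and 1 was lower at 12 against 10. Of the 6 hepatocyte genes, 1 was lower at 10 against 8 weeks and 1 higher at 12 against 10. The hepatocyte sum was 98710 to 117600, 78470 to 95400 and 91210 to 112600 CPM at 8, 10 and 12 weeks, so that no 10-week library reached the 8-week range. The part of these shifts in the levels of the 10 genes was not tested.

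The entry enzymes of the cycle overlapped between ages. Cps1, the most abundant of the 10 by CPM, stood at 7447, 7287, 7855 and 8632 at 8 weeks, 5538, 7410, 6703 and 5965 at 10 weeks, and 5043, 6744, 5542 and 8080 at 12 weeks. The groups overlapped, with a log2 fold change of -0.28 ± 0.16 at 12 against 8 weeks (edgeR adjusted p = 0.443). This was -0.19 without replicate 4 at 8 weeks and -0.18 without replicate 1 at 12 weeks. Otc went the other way, at 604, 533, 530 and 566 CPM at 8 weeks, 581, 437, 547 and 582 at 10 weeks, and 574, 649, 618 and 670 at 12 weeks. Its change at 12 against 10 weeks was 0.31 ± 0.098 (edgeR adjusted p = 0.180), and DESeq2 called it at 0.0460. Nags, the activator's enzyme, ranged from 37.0 to 46.5 CPM at 8 weeks, 44.3 to 62.4 at 10 weeks and 35.1 to 50.2 at 12 weeks, with overlap throughout.

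Ass1 and Arg1 overlapped between ages too. Ass1, which joins citrulline to aspartate, measured 4761, 4786, 4756 and 7367 CPM at 8 weeks, 3290, 4564, 4813 and 4171 at 10 weeks, and 3420, 4714, 5790 and 5875 at 12 weeks. Its change at 12 against 8 weeks was -0.11 ± 0.22 on the log2 scale (edgeR adjusted p = 0.845) and turned to 0.12 without replicate 4 at 8 weeks and to 0.028 without replicate 1 at 12 weeks. Arg1, the arginase of the cycle, measured 1443, 1770, 1638 and 2233 CPM at 8 weeks, 1198, 1423, 1477 and 1319 at 10 weeks, and 871, 1325, 1489 and 1539 at 12 weeks. Its changes were -0.45 ± 0.19 at 10 and -0.42 ± 0.19 at 12 against 8 weeks (edgeR adjusted p = 0.306 and 0.322), and -0.27 and -0.24 without replicate 4 at 8 weeks.

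The suppliers of ammonia overlapped between all ages. Sds ranged from 126 to 240 CPM at 8 weeks, 76.6 to 153 at 10 weeks and 59.1 to 163 at 12 weeks. It was the most variable of the 10, with a within-age SD of 0.55 on the log2 scale, above that of 97.6% of the 776 genes of like level. Hal ranged from 323 to 669, 289 to 558 and 339 to 474 CPM, and Gls2 from 371 to 673, 345 to 450 and 367 to 513 CPM at 8, 10 and 12 weeks. Otc was the steadiest, with a within-age SD of 0.13, above that of 28.3% of the 159 genes of like level. Slc25a15 had 0.19, above 61.5% of 195 genes of like level.

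**Figure D3:**
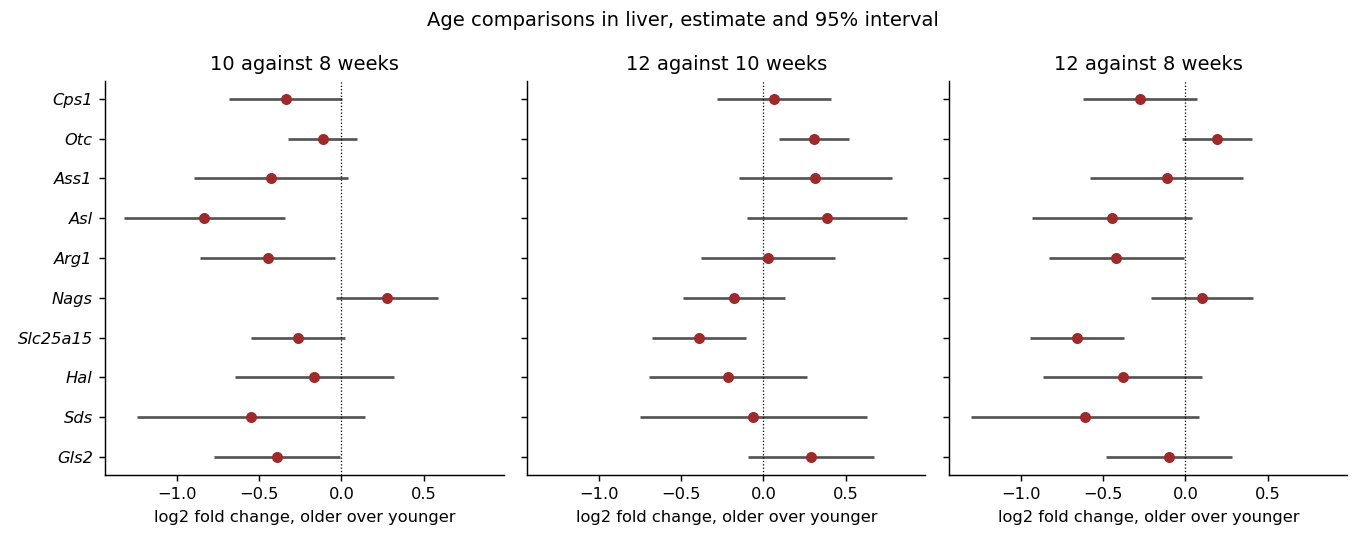
Log2 fold change (older over younger) of each gene in liver as a point with its 95% interval, for 10 against 8, 12 against 10 and 12 against 8 weeks in edgeR's fit of 12 libraries. At 12 against 8 weeks the interval lies below 0 for Slc25a15 (-0.95 to -0.37) and Arg1 (-0.83 to -0.0096), and at 10 against 8 weeks for Asl, Arg1 and Gls2, while no adjusted p passed 0.05.

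The wider nitrogen network gave as few calls. Of 63 further genes listed for ammonia supply, arginine, creatine and nitric oxide, histidine, amino acid breakdown and the periportal and pericentral zones, 59 were tested in liver and 0 passed edgeR's adjusted p at any pair of ages. At an unadjusted p under 0.05, 9 were higher and 5 lower at 12 against 8 weeks, 3 higher and 14 lower at 10 against 8, and 6 higher and 1 lower at 12 against 10, beside 15.1%, 14.3% and 14.1% of all genes in either direction. DESeq2 called 1, 3 and 4 of them in these comparisons, and the share of all genes that DESeq2 called is not given. Of 11 regulators of these genes, such as Hnf4a and Cebpa, 0 were called by edgeR in liver, and 4, 4 and 0 had an unadjusted p under 0.05, all higher at the older age, beside the same shares of all genes in either direction. Beside Slc25a15 stands Oat, ornithine aminotransferase of the pericentral cells, which was picked after its values were seen. Oat averaged 814 ± 107 CPM at 8 weeks, 890 ± 99.8 at 10 weeks and 1180 ± 95 at 12 weeks (SD, n = 4), without overlap between 8 and 12 weeks. Its log2 fold change was 0.56 ± 0.12 (edgeR adjusted p = 0.0721).

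An interaction term over all 36 libraries asked whether a gene's difference between 8 and 12 weeks was the same in a pair of tissues. The carrier fell in liver relative to both other tissues. In kidney its levels were 210, 200, 190 and 189 CPM at 8 weeks, 206, 189, 215 and 230 at 10 weeks, and 216, 220, 199 and 199 at 12 weeks. In heart they were 12.9, 14.2, 13.1 and 13.6 CPM at 8 weeks, 15.7, 14.7, 18.3 and 17.2 at 10 weeks, and 15.2, 17.1, 18.3 and 16.2 at 12 weeks. The kidney groups overlapped, and in heart both older groups lay above all 8-week libraries.

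The change at 12 against 8 weeks in liver minus that in kidney was -0.75 ± 0.14 (log2, SE) with an edgeR adjusted p of 0.00938, a call made for 0.304% of 19716 genes and for 0.137% in this direction. Liver minus heart gave -0.94 ± 0.14 with an adjusted p of 0.000596, a call made for 4.16% of genes and for 2.35% in this direction. Both calls held in all 41 other settings and left-out libraries, with adjusted p between 0.00161 and 0.0313 for kidney and between 5.2e-05 and 0.00331 for heart. Without replicate 4 of the 8-week livers they were -0.64 (adjusted p = 0.0183) and -0.83 (adjusted p = 0.000825). Kidney minus heart was -0.19 ± 0.14 (edgeR adjusted p = 0.676; 0.112% of genes called). Both comparisons share the liver libraries.

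The other genes measured in all tissues gave no such call. For Asl the difference was -0.27 ± 0.24 between liver and kidney and -0.16 ± 0.27 between liver and heart (95% intervals -0.75 to 0.21 and -0.71 to 0.38). For Ass1 it was -0.050 ± 0.27 and -0.050 ± 0.30 (95% intervals -0.60 to 0.50 and -0.66 to 0.56). These intervals leave room for changes in either direction.

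**Figure D4:**
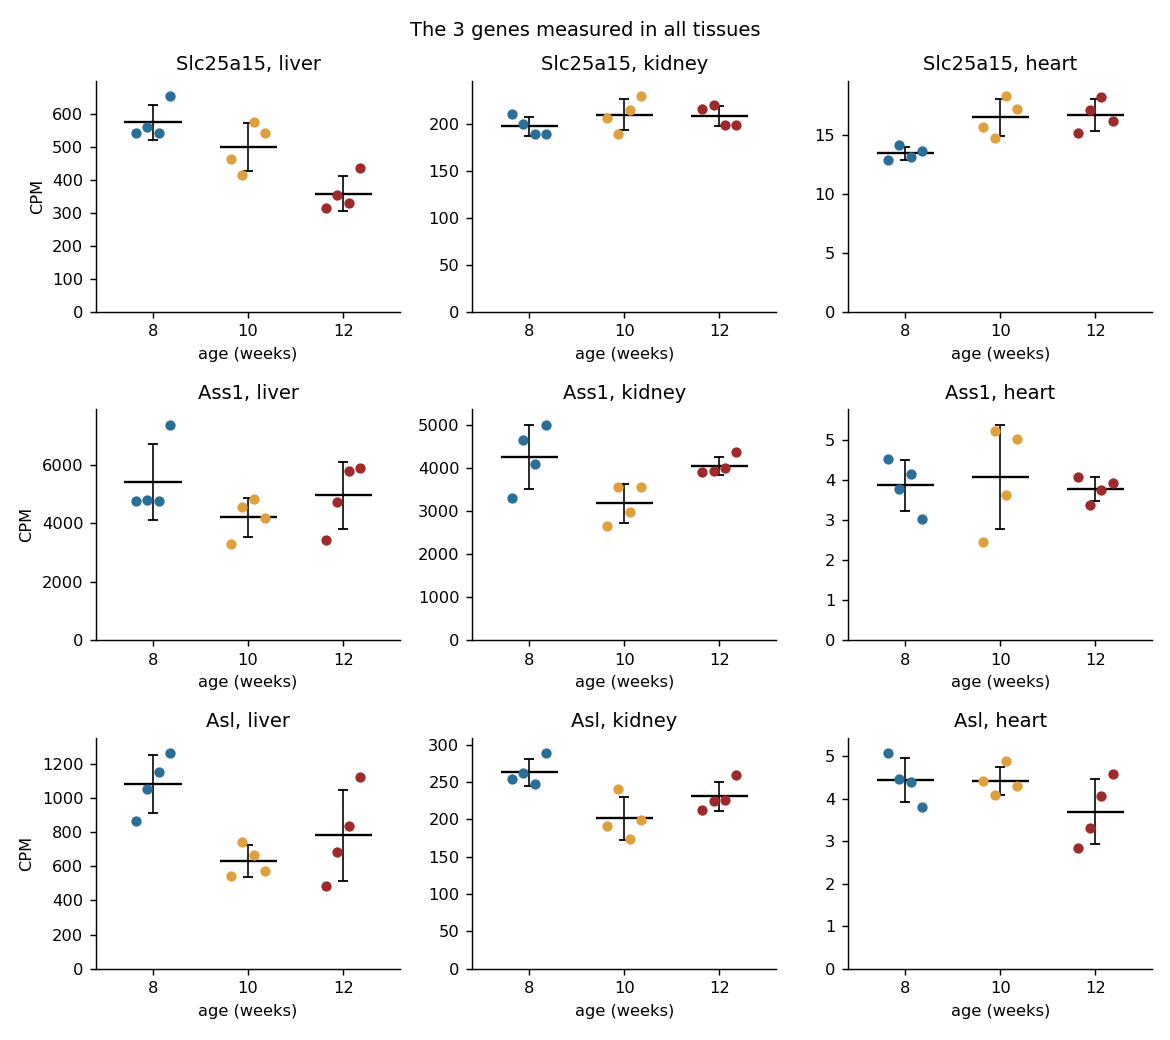
Level in CPM (linear axes from 0, each with its own range) of Slc25a15, Ass1 and Asl in each library of liver, kidney and heart at 8, 10 and 12 weeks, with mean and SD (n = 4). Mean Slc25a15 goes from 574 to 358 CPM in liver between 8 and 12 weeks, from 197 to 209 in kidney and from 13.5 to 16.7 in heart.

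Within kidney, Ass1, Asl and Slc25a15 passed the filter and 0 of 3 were called by edgeR, beside 0.0567%, 0.929% and 0.482% of 17649 genes for 12 against 8, 10 against 8 and 12 against 10 weeks. An unadjusted p under 0.05 was reached by 0, 2 and 2 of them, beside 11.7%, 16.5% and 16.4% of all genes. The levels of the arginine-making pair were lowest at 10 weeks, although without a call. Kidney Asl measured 254, 262, 247 and 289 CPM at 8 weeks, 191, 241, 173 and 199 at 10 weeks, and 213, 225, 226 and 259 at 12 weeks. Its 10-week libraries lay under all 8-week libraries (8.67% of genes did not overlap, 3.43% in this direction), with a log2 fold change of -0.40 ± 0.10 (edgeR adjusted p = 0.0741). Kidney Ass1 measured 3293, 4639, 4076 and 4998 CPM at 8 weeks, 2645, 3542, 2967 and 3553 at 10 weeks, and 3910, 3922, 3988 and 4359 at 12 weeks. Its changes were -0.44 ± 0.13 at 10 against 8 weeks (edgeR adjusted p = 0.119) and 0.39 ± 0.13 at 12 against 10 weeks (0.161), where the groups did not overlap (9.09% of genes).

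Whether the kidney pair was called depended on the fit, and the shares of all genes called are those of the first edgeR fit only. At 10 against 8 weeks DESeq2 called Asl (adjusted p = 0.0109) and Ass1 (0.0297), edgeR with the replicate number as a block called both (0.0482 and 0.0374), and so did edgeR without the filter. The replicate numbers do not pair libraries of different ages. Leaving out 10-week replicate 2 gave an adjusted p of 0.0198 for Asl, and leaving out 8-week replicate 1 gave 0.0492 for Ass1. Kidney Slc25a15 differed by 0.10 ± 0.061 at 12 against 8 weeks (edgeR adjusted p = 0.546). Of the further nitrogen genes 58 were tested in kidney and 0 were called by edgeR. At an unadjusted p under 0.05, 6 were higher and 3 lower at 12 against 8 weeks, 3 higher and 11 lower at 10 against 8, and 12 higher and 2 lower at 12 against 10, beside 11.7%, 16.5% and 16.4% of all genes in either direction, and DESeq2 called 1, 3 and 5.

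In heart, 5 of the 10 genes passed the filter (Cps1, Ass1, Asl, Slc25a15 and Gls2) and 0 were called by edgeR, beside 4.56%, 1.06% and 0.0396% of 15137 genes for 12 against 8, 10 against 8 and 12 against 10 weeks. An unadjusted p under 0.05 was reached by 1, 2 and 0 of them, beside 23.4%, 15.8% and 11.7% of all genes. Cps1 passed the filter through its 10-week libraries alone, so no conclusion is drawn from its part in these counts. The fitted difference of Slc25a15 was 0.28 ± 0.085 on the log2 scale at 12 against 8 weeks (edgeR adjusted p = 0.0639) and 0.29 ± 0.085 at 10 against 8 weeks (0.116). Its groups did not overlap in either comparison, nor did those of 13.3% and 8.89% of all genes. Ass1 stayed between 2.46 and 5.24 CPM and Asl between 2.84 and 5.07 CPM, with overlap at all ages. Of the further nitrogen genes 41 were tested in heart, and Prodh, the first enzyme of proline breakdown, was called at 10 against 8 weeks. It averaged 36.5 CPM at 8 and 21.6 CPM at 10 weeks (log2 fold change -0.77 ± 0.17, edgeR adjusted p = 0.0398). Among the regulators the heart level of Cebpb, a C/EBP factor gene, fell from a mean of 65.1 CPM at 8 to 38.1 CPM at 12 weeks (log2 fold change -0.80 ± 0.19, edgeR adjusted p = 0.0265).

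Cps1 and Arg1 in heart were highest in the same libraries as the hepatocyte marker Alb. Cps1 measured 0.966 and 0.826 CPM in replicates 2 and 4 at 10 weeks and at most 0.297 in the other 10 heart libraries, and Arg1 measured 0.644 and 0.496 CPM in the same pair and at most 0.149 elsewhere. Alb, the most abundant hepatocyte transcript, stood at 10.3 and 15.2 CPM in this pair, at most 2.6 CPM elsewhere and at 0 in all 8-week hearts. The fitted change of Cps1 at 10 against 8 weeks was 2.86 ± 1.03 (log2, edgeR adjusted p = 0.189), and the part of hepatocyte transcripts in it was not tested. Cps1 passed the filter in heart only through its 10-week libraries, with 2, 21, 1 and 20 counted pairs. No conclusion is drawn from this change, as the gene was admitted through the group where it was high.

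Finally, the genes were set against each other over the 12 liver libraries, as a description. A block of Cps1, Ass1, Asl, Arg1 and Sds stood together, a grouping made after the values were seen, with Pearson r of log2 CPM from 0.73 to 0.91 between any of them. The closest were Arg1 with Sds (0.91), Asl with Arg1 (0.89) and Cps1 with Asl (0.88). Of all 45 pairs, 13 had an r above 0.7 and 3 were below 0, with a median of 0.38. Above 0.7 outside the block were Ass1 with Gls2 (0.843), Slc25a15 with Sds (0.730) and Arg1 with Gls2 (0.701). Without replicate 4 at 8 weeks, Arg1 with Sds gave 0.87, Asl with Arg1 0.87 and Cps1 with Asl 0.84, while Cps1 with Sds gave 0.62 and Cps1 with Ass1 0.65. Over the 45 pairs, 10 were then above 0.7 and 11 below 0, with a median of 0.29. With all 12 libraries and the mean of each age taken off, 20 were above 0.7 and 2 below 0, with a median of 0.67. The points share their libraries, and ages are pooled.

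Over all libraries Otc, Nags and Hal stood outside the block. Otc had an r of 0.048 with Cps1, its neighbour in the mitochondrion, and 0.38 with Ass1. With Slc25a15 it had -0.24 over all libraries and 0.64 after the mean of each age was taken off, as the level of the carrier was lowest and that of Otc highest at 12 weeks. Nags had -0.012 with Asl over all libraries and 0.60 after centring by age. Nags then had 0.77 with Ass1, 0.71 with Arg1 and 0.71 with Sds, within the range of the block itself (0.64 to 0.95). With Cps1 it had 0.41 after centring, below that range, as was its value with Asl. Hal had an r between -0.00090 and 0.27 with the members of the block.

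**Figure D5:**
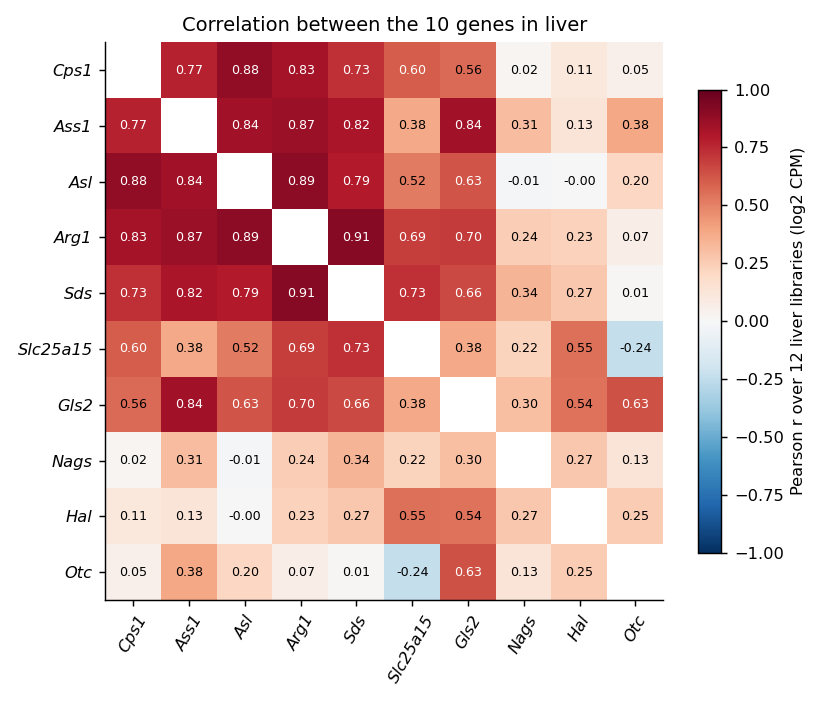
Pearson r of log2 CPM between the 10 genes over the 12 liver libraries, from blue (-1) to red (1), with the value in each cell. Cps1, Ass1, Asl, Arg1 and Sds form a red block with r from 0.73 to 0.91, while Nags, Hal and Otc have r of 0.38 or less with its members.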

How the data were processed

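The authors checked reads with FastQC v0.11.9, trimmed them with cutadapt v4.2 and aligned them with STAR v2.7.11b to GRCm39 (Ensembl v113). The deposited counts are whole read pairs per gene, not normalized. STAR counts a pair only at a single place and gene. Of the count columns, the unstranded was taken.

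Libraries were grouped by tissue and age from their labels. Per tissue, genes were kept with at least 2 non-zero libraries and a mean count of 10 or more in some age group. Scaling (TMM) and quasi-likelihood tests used edgeR 4.0.16 in R 4.3.3, with a mean per age and Benjamini-Hochberg adjustment over all genes kept. A call is an adjusted p under 0.05. Tissue contrasts and interactions used 36 libraries. Alternatives were DESeq2 1.42.0, limma-voom (limma 3.58.1), RLE or total-count scaling, other filters, 2 ages only, strand columns summed, a replicate block and each library left out. Names came from a later Ensembl release, which matched 78168 of 78239 identifiers. Tests were tried on simulated data with 200 genes changed 2-fold at 12 against 8 weeks. They found 53% of these in liver, 78.5% in kidney and 81% in heart. Smaller changes were not simulated. Libraries held 21031599 to 33637390 counted pairs, and intervals on counts cover counting error only.

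All 10 genes were named throughout, related isozymes in every tissue (1 is not reported here), and other listed genes where called. The members, lists and tests were chosen with earlier results of these data known.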

Additional observations from a re-analysis of the deposited data

Results flagged for a closer look

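In the 8-week livers, replicate 4 stood apart from the other 3 for Ass1, at 7367 CPM against 4756 to 4786 CPM. The same library stood apart for Slc25a15, at 653.3 CPM against 542 to 559 CPM. These were the 2 groups of 4 libraries, of 48 examined, in which the gap to the nearest library exceeded Dixon's 95% critical share of the range, and chance alone flags about 1 group in 20.

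The change of Slc25a15 between 8 and 12 weeks differed between tissues by edgeR's interaction test. The log2 difference was -0.7493 for liver minus kidney (adjusted p = 0.00938) and -0.9381 for liver minus heart (adjusted p = 0.000596). Without the 8-week replicate 4 of liver these were -0.64 and -0.83, still called.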

How the results depend on the processing

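The interaction calls for Slc25a15 held under all 41 alternatives, and the calls of all 10 genes as higher in liver than in kidney or heart held as well. Counts of called genes by age did not all hold. The shares of all genes called that the text gives are those of the first edgeR fit, and none is given for the alternatives. In liver, 1 gene instead of 0 was called at 12 against 8 weeks (Slc25a15) without the filter, by DESeq2 and with the replicate block, 1 at 10 against 8 (Asl) without the filter and by DESeq2, and 1 at 12 against 10 (Otc) by DESeq2. In kidney, 2 instead of 0 were called at 10 against 8 weeks without the filter, by DESeq2 and with the block, and 2 at 12 against 10 without the filter. In heart, 1 instead of 0 was called at 12 against 8 weeks by DESeq2 (Slc25a15), and 2 at 10 against 8 without the filter. The cause was not tested.

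Of the further nitrogen genes DESeq2 called 1, 3 and 4 in liver at 12 against 8, 10 against 8 and 12 against 10 weeks, 1, 3 and 5 in kidney, and in heart 2 at 12 against 8 and 2 at 10 against 8 weeks, where edgeR called 0 and 1. Limma-voom called 1 in heart at 12 against 8 weeks.

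Leaving out single libraries, called genes numbered 0 to 1 in liver at 12 against 8 weeks (1 without 10-week replicate 2 or without 12-week replicate 4, adjusted p = 0.0455 and 0.0320), 0 to 1 in kidney at 10 against 8 weeks and 0 to 1 in heart at 12 against 8 weeks (1 without 12-week replicate 4). Small changes turned sign. In liver at 12 against 8 weeks, Ass1 ran from -0.21 to 0.12 and Gls2 from -0.22 to 0.12 (log2) over left-out libraries. At 12 against 10 weeks Cps1 ran from -0.077 to 0.17, Arg1 from -0.063 to 0.18 and Sds from -0.31 to 0.15. In kidney Ass1 ran from -0.16 to 0.038 at 12 against 8 weeks and Slc25a15 from -0.012 to 0.085 at 12 against 10. In heart Ass1 ran from -0.16 to 0.015 at 12 against 8, from -0.085 to 0.24 at 10 against 8 and from -0.30 to 0.022 at 12 against 10 weeks, Asl from -0.073 to 0.057 at 10 against 8 and Slc25a15 from -0.051 to 0.034 at 12 against 10. The interaction of Ass1 ran from -0.15 to 0.19 for liver minus kidney, from -0.15 to 0.18 for liver minus heart and from -0.11 to 0.10 for kidney minus heart, and that of Asl from -0.39 to 0.013 for liver minus heart. Arg1 in liver at 12 against 10 weeks was -0.00062 by limma-voom and -0.0069 with the block, Sds was 0.11 with the strand columns summed, and Asl in heart at 10 against 8 weeks was 0.0024 by limma-voom. Ass1 for kidney minus heart was 0.0040 by limma-voom, 0.032 with the block and 0.0099 with strand columns summed.

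The labels number the libraries 1 to 4 in each group. Between ages, same-numbered libraries of a tissue had a median correlation of deviations of 0.031 in liver, -0.0025 in kidney and -0.0022 in heart, so the numbers do not pair ages. Across tissues every one of 12 liver libraries correlated best with the kidney library of its own number (r 0.061 to 0.26), 8 of 12 with that of heart, a hint from the data only. With age and number as a block, the Slc25a15 interactions stayed called.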

Other observations

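Genes that followed the cycle most closely over the 12 liver libraries were sought among 9059 genes with a mean of at least 5 CPM. Against the mean standardized level of Cps1, Otc, Ass1, Asl and Arg1, the highest Pearson r were those of Sf3b2 (0.96), a splicing factor subunit, Ahcy (0.94), which splits S-adenosylhomocysteine, Ciao1 (0.93), Cpped1 (0.93) and Haus2 (0.93). After the mean of each age was taken off they were 0.94, 0.92, 0.92, 0.91 and 0.89. Against Sds the highest were Msl3 (0.94), Tango2 (0.92), Manea (0.91), Ahcyl (0.91) and Rrm1 (0.91). These are the extremes of 9059 values over few libraries that share depth and animals, given as a description.

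Among clock genes, Bmal1 stood at 7.20, 7.75 and 4.63 CPM in replicates 1, 3 and 4 of the 10-week livers and at 0.84 to 1.76 CPM in the other 9. At 10 against 8 weeks, 3 of 9 clock genes tested in liver were higher and 4 lower at an unadjusted p under 0.05 (14.3% of all genes). In kidney 2 of 10 were higher and 4 lower (16.5%), and edgeR called 0 in either tissue. The part of this in the 10-week levels of the urea cycle genes was not tested. Sdsl stood at 39.6 CPM in replicate 4 of the 8-week livers and at 11.5 to 19.2 CPM in the other 11.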
